A study of Mus musculus with 12 samples.

Results

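Ankrd1, Ankrd2, Ankrd23, Csrp3, Fhl1, Fhl2, Fhl3, Xirp1 and Xirp2 encode ankyrin repeat, LIM domain and Xin repeat proteins of striated muscle that are known to respond to stretch and load. They were taken by symbol from the 23923 named genes of each of 12 RNA-seq libraries of the tibialis anterior, a fast-twitch muscle of the hindlimb. All 9 genes were found in every library, and all 9 were among the 12695 genes that passed the filter on low values (at least 0.1 FPKM in at least 6 libraries). FPKM are fragment counts scaled to transcript length and to mapped reads, so that levels of different genes can be compared per length.

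The 6 controls were Myf6 cre/+ with the Smyd1 alleles flox/+, and the 6 Smyd1 conditional knockouts (CKOs) were Myf6 cre/+ with the alleles flox/-. All 12 mice were 6 weeks old and of mixed C57BL6/J;129S1/SvImJ background. The study's methods add that both genotypes carried 1 Rosa26 YFP reporter allele. By the study's account its experiments after the first histology used male tissues only, and CKO males were affected more severely than CKO females. Myf6 cre acts in differentiated myofibers from shortly before birth, so that controls had Cre and 1 working Smyd1 allele, and other cells of the muscle kept the floxed allele in both groups. Each library came from 1 mouse. Smyd1 encodes a lysine methyltransferase of striated muscle.

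Ankrd1, Ankrd2 and Ankrd23 form the family of muscle ankyrin repeat proteins, which bind the N2A region of titin in the I-band and can also enter the nucleus. Csrp3, also called muscle LIM protein, sits at the Z-disc, and the related LIM adaptors Fhl1, Fhl2 and Fhl3 join sarcomere proteins and transcription factors. Xirp1 and Xirp2 bind actin filaments through Xin repeats and are known from myotendinous junctions and from sites of myofibril damage, where Xirp1 meets filamin C. In skeletal muscle several of these genes are higher in slow than in fast fibers and rise after stretch, denervation or injury.

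Promoter windows are shown for the members that were higher in CKOs and for 3 that moved together from mouse to mouse. The windows hold the 250 bases before a transcription start in RefSeq (GRCm38.p6), while the FPKM files were made on the build mm9, so the windows give sequence only. Windows were matched for 8 of the 9 genes, all but Xirp1. Ankrd23, Csrp3, Fhl1 and Fhl2 had 2 windows each and the other genes 1, and only window 1 is shown. Ankrd1 (chr19:36119845-36120094, minus strand) is shown with the TEAD motif MCAT (CATTCC, searched on both strands) in capitals, Fhl2 (chr1:43196762-43197011, minus strand) with a CArG box, the motif of SRF, and an MEF2 site in capitals.
Ankrd1: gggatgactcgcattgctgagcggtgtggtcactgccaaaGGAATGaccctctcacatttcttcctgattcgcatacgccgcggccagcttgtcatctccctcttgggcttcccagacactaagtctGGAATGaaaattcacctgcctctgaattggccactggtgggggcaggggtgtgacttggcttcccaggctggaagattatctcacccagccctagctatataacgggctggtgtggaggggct
Fhl2: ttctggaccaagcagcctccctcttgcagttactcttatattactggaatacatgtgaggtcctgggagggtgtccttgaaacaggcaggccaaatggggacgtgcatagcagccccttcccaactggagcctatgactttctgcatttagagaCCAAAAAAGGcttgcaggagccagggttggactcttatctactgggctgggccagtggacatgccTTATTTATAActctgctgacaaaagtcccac
Both MCAT letters of Ankrd1 lay on the opposite strand, as GGAATG, and started 210 and 123 bases before the start site. The motif was present in 12.6% of all 32851 windows and, among the members, in the window of Ankrd1 and in window 2 of Ankrd23 only. A CArG box was present in 1.47% of all windows, in both windows of Fhl2 and in window 1 of Fhl1 only. An MEF2 site was present in 2.92% of all windows, in window 1 of Fhl2 only and in the window of Xirp2. The shares are per window, so that a gene with 2 windows has more room for a match.

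The 3 members that moved together, Ankrd2 (chr19:42035777-42036026, plus strand), Csrp3 (chr7:48848052-48848301, minus strand) and Fhl1 (chrX:56779433-56779682, plus strand), are shown with E-boxes (CANNTG, the motif of the myogenic bHLH factors, which reads alike on both strands) in capitals.
Ankrd2: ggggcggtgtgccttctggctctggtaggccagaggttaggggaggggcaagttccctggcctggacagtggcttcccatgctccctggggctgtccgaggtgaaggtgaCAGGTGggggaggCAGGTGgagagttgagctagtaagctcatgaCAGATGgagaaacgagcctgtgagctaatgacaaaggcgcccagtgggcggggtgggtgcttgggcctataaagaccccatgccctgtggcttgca
Csrp3: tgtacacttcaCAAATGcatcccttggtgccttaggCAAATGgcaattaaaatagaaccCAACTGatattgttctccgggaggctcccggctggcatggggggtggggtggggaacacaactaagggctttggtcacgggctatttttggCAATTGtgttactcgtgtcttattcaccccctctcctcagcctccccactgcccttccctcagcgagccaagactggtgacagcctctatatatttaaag
Fhl1: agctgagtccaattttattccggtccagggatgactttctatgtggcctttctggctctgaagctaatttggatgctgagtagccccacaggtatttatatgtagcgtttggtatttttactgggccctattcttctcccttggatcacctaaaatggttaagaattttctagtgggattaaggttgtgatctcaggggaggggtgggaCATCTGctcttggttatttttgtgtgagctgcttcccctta
These windows held 3 E-boxes in Ankrd2, 4 in Csrp3 and 1 in Fhl1, and window 2, not shown, held 4 in Csrp3 and 2 in Fhl1. An E-box was present in 66.2% of all windows, so that its presence does not set these genes apart. The matches are letters in a window and no binding was measured.

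The muscle libraries showed the markers of their tissue. The summed FPKM of 7 skeletal myofiber markers lay between 14050 and 20640 in controls and between 15160 and 19330 in CKOs. The number of reads is unknown, and the relative depth estimated from the spacing of low FPKM values ran from 0.983 (CKO 5) to 1.76 (CKO 1) of that of control 1. Control 1 stood apart, with a summed FPKM of 811 for 7 fibroblast and tenocyte markers. The other controls had 216 to 275 and the CKOs 283 to 478. Control 1 was also highest for macrophage and leukocyte markers (12.5 against 2.97 to 9.31 in the other libraries). For erythroid markers it had 49.3 against 12.8 to 39.2. In the fit with sample weights it had the lowest weight, 0.346. Smyd1 itself lay between 32.9 and 47.1 FPKM in controls and between 27.8 and 39.9 in the mice labelled CKO (log2 fold change -0.13, SE 0.12, limma adjusted P = 0.545). The groups overlapped for this gene, and after median-ratio scaling the difference was -0.32 (limma adjusted P = 0.0801). Which exon the floxed allele removes is not given in the sources used here, so the FPKM of the whole gene does not check the labels. At the protein level, the study's western blots found no detectable SMYD1 in the tibialis anterior of CKOs.

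The 9 genes differed widely in level in control muscle. Ankrd23 was the most abundant (323 ± 41.9 FPKM, SD, n = 6), followed by Fhl1 (257 ± 121) and Xirp2 (249.2 ± 21.5), whose ranges overlapped. Csrp3 (41.7 ± 53.8) and Ankrd2 (34.8 ± 38.4) came next and overlapped with Fhl3 (13.4 ± 2.08) and Xirp1 (12.3 ± 4.85). The means of Csrp3 and Ankrd2 rested on control 1, without which Csrp3 was 20.6 and Ankrd2 20.0 FPKM, and by the median Ankrd2 (19.4) was above Csrp3 (17.9). Ankrd1 (5.68 ± 2.26) overlapped only with the members whose range was wide or near it (Ankrd2, Csrp3 and Xirp1). Fhl2 was lowest at 0.234 ± 0.149 FPKM, a level at which few fragments stand behind each value.

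**Figure D1:**
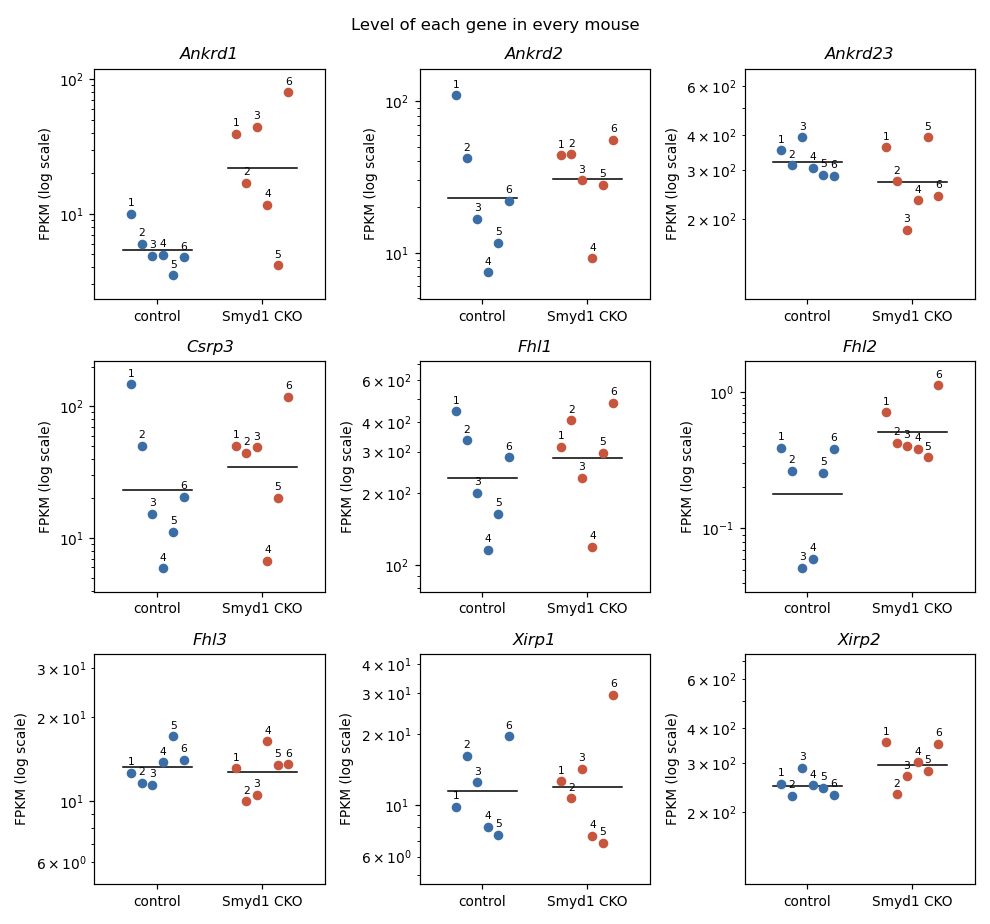
FPKM (log scale) of the 9 genes in each of 6 controls (blue) and 6 Smyd1 CKOs (red), with the mouse number above each point and a line at the geometric mean of each group. For Ankrd1, 5 CKOs lie above every control, and for no gene do the groups separate fully.

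CKOs and controls were compared at an unadjusted limma P below 0.05, since the study states its cutoff without saying whether it was adjusted, and at the same threshold after adjustment over all genes tested. Ankrd1 and Fhl2 were higher in CKOs at the unadjusted level, 2 of 9, and 18.1% of all genes tested were higher at this level. None of the 9 was lower, against 1.76% of all genes. None passed the adjusted threshold, which 2.02% of all genes passed as higher and 0.268% as lower. None had all 6 CKO values above all controls, as 2.23% of genes did, or all 6 below, as 0.189% did. The log2 fold change was positive for 7 of 9 members and its median was 0.27, while the median of all genes tested was 0.18 and 77.9% of them were positive. Under median-ratio scaling the median of all genes was 0.01 and that of the 9 members 0.08. Of the members 6 of 9 were positive, against 51.3% of all genes. At the unadjusted level 2 members were then higher and 1 lower, against 6.66% and 7.41% of all genes.

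Among the ankyrin repeat genes, Ankrd1 was the member that differed most. It is the cardiac ankyrin repeat protein, low in healthy limb muscle and known to be induced by stretch and denervation. Its FPKM ran from 3.50 through a median of 4.92 to 10.01 in controls, and from 4.16 through a median of 28.2 to 79.9 in CKOs. CKO 6 had 79.9, CKO 3 had 44.5 and CKO 1 had 39.3 FPKM, CKO 2 had 17.0 and CKO 4 had 11.7, while CKO 5, at 4.16, lay inside the range of the controls. Thus 5 of 6 CKOs exceeded every control, and 7.24% of all genes tested had at least 5 CKOs above every control.

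The mean rose from 5.68 ± 2.26 to 32.8 ± 27.96 FPKM, a ratio of means of 5.77, and without CKO 6 the CKO mean was 23.3. On the log2(FPKM + 0.1) scale the difference was 2.02 (SE 0.54, unadjusted P = 0.00192, limma adjusted P = 0.0639), and a two-sided exact permutation test over all assignments of the 12 mice gave P = 0.0173. The call at the adjusted threshold rested on single mice. Without CKO 5 the difference was 2.50 with a limma adjusted P of 0.00505, without control 1 it was 2.20 with 0.027, and without CKO 6 it was 1.65 with 0.126. The CKOs also differed among themselves more than the controls, with an SD of log2 values of 1.53 against 0.50. Of the 7969 genes above 1 FPKM, 99.5% had a smaller SD than Ankrd1 among CKOs.

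Ankrd2, the family member best known from slow fibers and stretched muscle, did not separate the groups. It ran from 7.44 through a median of 19.4 to 109 FPKM in controls and from 9.19 through 37.0 to 55.4 in CKOs, with the CKO range wholly inside that of the controls. The log2 fold change was 0.42 (SE 0.56, limma adjusted P = 0.698). Control 1, the library with the high fibroblast and tenocyte markers, held the highest value. With single mice left out the difference ran from 0.094 (without control 4) to 0.86 (without control 1). The part of the fibroblast and tenocyte markers, or of the other markers high in this library, in this value was not tested.

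Ankrd23, also called DARP, was abundant and steady in controls, from 286 through 308 to 393 FPKM. CKOs ran from 182 through 257 to 393 FPKM, and 4 of 6, namely CKO 2, 3, 4 and 6, lay below every control, while CKO 1 and CKO 5 did not. At least 4 CKOs lay below every control for 1.87% of all genes tested. The log2 fold change was -0.24 (SE 0.17, limma adjusted P = 0.437). It depended on the scaling, since median-ratio scaling gave -0.43 (limma adjusted P = 0.217, below 0.05 unadjusted), and on single mice, with -0.35 without CKO 5 (limma adjusted P = 0.224, below 0.05 unadjusted) and -0.13 without CKO 3 (limma adjusted P = 0.692). The point estimates of Ankrd1 and Ankrd23, which bind the same region of titin, thus had opposite signs in the same muscles. Across mice the r between the 2 genes was -0.507 in CKOs (exact permutation P = 0.304, Benjamini-Hochberg adjusted 0.708, and 0.0119 without the 2 farthest mice) and 0.455 in controls (exact P = 0.36, adjusted 0.725).

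**Figure D2:**
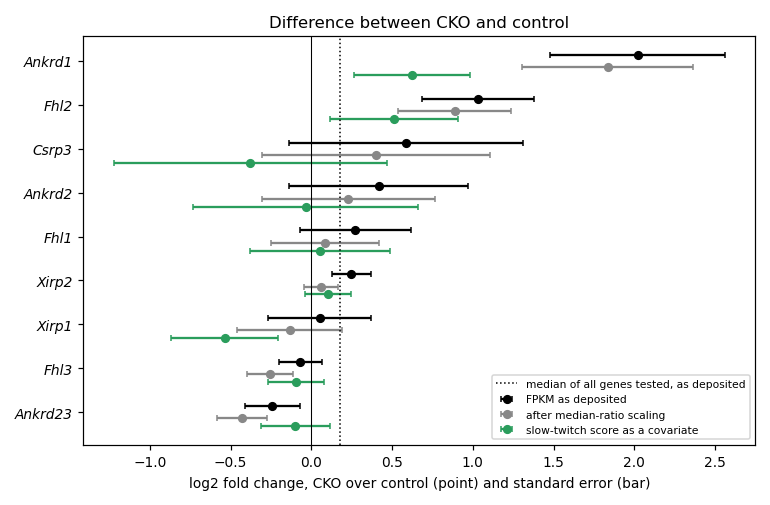
Log2 fold change of CKO over control (points, on the log2(FPKM + 0.1) scale) and its limma standard error (bars) for the 9 genes, with FPKM as deposited, after median-ratio scaling, and with the slow-twitch score of each mouse as a covariate. The dotted line is the median of all genes tested, 0.18. Ankrd1 stands farthest from it at 2.02 and falls to 0.62 with the covariate.

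Among the LIM genes, Fhl2 was the second member that was higher in CKOs. Fhl2 is a LIM adaptor that is abundant in heart and low in limb muscle. It ran from 0.0517 through a median of 0.260 to 0.392 FPKM in controls and from 0.332 through 0.412 to 1.12 in CKOs. CKO 1, 2, 3 and 6 lay above every control, and CKO 4 and CKO 5 were within the controls' range. At least 4 CKOs lay above every control for 14.8% of all genes tested.

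The mean of Fhl2 was 0.234 ± 0.149 FPKM in controls and 0.562 ± 0.305 in CKOs. The log2 fold change was 1.03 (SE 0.35, P = 0.00974, limma adjusted P = 0.129), and the exact permutation test gave P = 0.0152. With a pseudocount of 1 FPKM the difference was 0.33, since the values are near the pseudocount. Control 3 and control 4 were the lowest, at 0.0517 and 0.0602 FPKM, and without either the difference was 0.83 and 0.85. After median-ratio scaling 2 CKOs in place of 4 lay above every control.

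Csrp3, whose product is a Z-disc LIM protein that is typical of slow fibers, had the widest range of all 9 genes, 24.9-fold from lowest to highest mouse. It ran from 5.90 through a median of 17.9 to 147 FPKM in controls and from 6.73 through 46.7 to 119 in CKOs, again inside the controls' range. The log2 fold change was 0.59 (SE 0.72, limma adjusted P = 0.671), and with single mice left out it ran from 0.20 (without control 4) to 1.12 (without control 1). Fhl1, the abundant LIM adaptor of skeletal muscle, ran from 116 through 242 to 444 FPKM in controls and from 119 through 304 to 480 in CKOs (log2 fold change 0.27, SE 0.34, limma adjusted P = 0.679, and from 0.07 without control 4 to 0.52 without CKO 4). Fhl3 was the steadiest LIM gene, between 11.4 and 17.0 FPKM in controls and between 9.95 and 16.4 in CKOs (log2 fold change -0.07, SE 0.13, limma adjusted P = 0.795).

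Of the Xin repeat genes, Xirp1 did not separate the groups. It ran from 7.45 through a median of 11.1 to 19.7 FPKM in controls and from 6.86 through 11.6 to 29.5 in CKOs (log2 fold change 0.05, SE 0.32, limma adjusted P = 0.947), and its sign depended on the scaling, with -0.14 after median-ratio scaling. CKO 6 had the highest value, as it had for Ankrd1. Xirp2 was abundant and steady, from 229 through 247 to 289 FPKM in controls and from 231 through 292 to 356 in CKOs. CKO 1, 4 and 6 lay above every control, and 26.1% of all genes tested had at least 3 CKOs above every control. The log2 fold change was 0.25 (SE 0.12, limma adjusted P = 0.263), against 0.06 after median-ratio scaling. The exact permutation test of Xirp2 gave P = 0.0519.

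The CKOs in which Ankrd1 was high were also those in which slow-twitch genes were high. The slow-twitch score, the mean log2 value of 12 slow-fiber genes such as Myh7 and Tnnt1 that hold no member, lay between 0.88 and 2.05 in controls. It was 4.37 in CKO 6, 3.57 in CKO 1 and 3.18 in CKO 3, and 1.45 to 2.14 in the other CKOs. Since the CKOs fell into these 3 and the other 3, no correlation pooled over all 12 mice is given. Bulk RNA cannot tell more slow fibers from more slow-fiber RNA per fiber. By real-time PCR the study found RNA of the slow myosin gene Myh7 increased in the tibialis anterior of CKOs. It also counted type I fibers in this muscle by immunofluorescence and found no significant difference in their percentage. Slow myosin protein was virtually undetectable on its western blots of this muscle. Whether the mice sequenced here were among those stained is not stated.

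With the score as a covariate the log2 fold change of Ankrd1 was 0.62 (SE 0.36, limma adjusted P = 0.559), against 2.02 without it, and that of Fhl2 was 0.51 (SE 0.39, limma adjusted P = 0.666), and neither passed at the unadjusted level. The score itself is partly a measure of genotype, since CKOs had higher values, so that the covariate also takes up part of a difference between the groups. Xirp1 changed sign under the covariate, to -0.54 (SE 0.33, limma adjusted P = 0.592). Among the 6 controls the Pearson r of Ankrd1 with the score was 0.46 (exact permutation P = 0.367, Benjamini-Hochberg adjusted 0.725). Spearman's rho was 0.486 (exact P = 0.356, adjusted 0.78), and r was 0.0182 without the 2 mice farthest from the median. Among the 6 CKOs r was 0.918 (exact P = 0.0181, adjusted 0.181) and rho 0.886 (exact P = 0.0333, adjusted 0.25). Without the 2 farthest mice the r of CKOs was 0.863. The CKOs were split into high and low scores, which these values do not take apart from a graded relation.

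**Figure D3:**
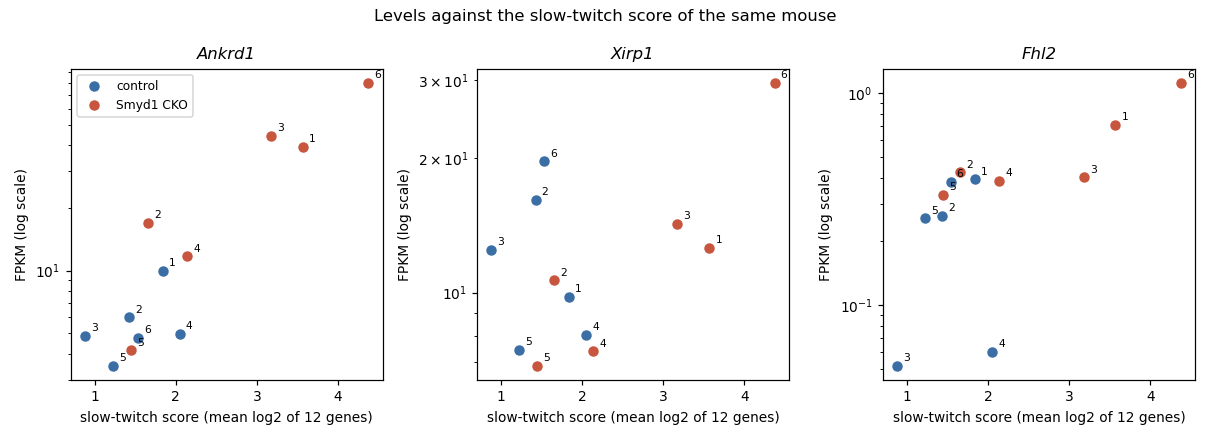
FPKM (log scale) of Ankrd1, Xirp1 and Fhl2 against the slow-twitch score (mean log2 of 12 genes) of the same mouse, for 6 controls (blue) and 6 CKOs (red), with mouse numbers. CKO 1, 3 and 6 have scores of 3.57, 3.18 and 4.37 and the 3 highest Ankrd1 levels, while the other CKOs have scores near those of the controls.

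Of 5 markers of cardiac muscle, 2 (Myh6 and Tnnt2) were also highest in the CKOs with the most Ankrd1. The summed FPKM of 5 cardiomyocyte markers was 0.524 to 1.20 in controls and 3.88, 2.95 and 4.36 in CKO 1, 3 and 6, against 0.573 to 1.33 in the other CKOs. The sum was carried by Myh6 and Tnnt2, and Tnnt2 is also in the list of embryonic and regeneration genes used below. Of the 5 markers 2 passed the filter and none was called. Ryr2 went the other way, near 0, with 0.00934, 0 and 0.00933 FPKM in CKO 1, 3 and 6 and 0.0153 to 0.0280 in the other CKOs. The defining markers Nppa and Nkx2-5 were listed at 0 in 11 of 12 libraries. The exception for both was CKO 6, the mouse with the most Ankrd1, with 0.0946 FPKM of Nppa and 0.0514 of Nkx2-5. Schwann cell markers were also high in these mice, with a summed FPKM of 4 markers of 9.49, 11.8 and 8.90 in CKO 1, 3 and 6, 6.09 to 7.79 in the other CKOs and 3.33 to 8.21 in controls, and 2 of the 4 were higher at the unadjusted level. The part of the cardiac and Schwann cell markers in the result was not tested.

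The genes whose deviations from the group means were most like those of Ankrd1, among 7961 genes with a mean of at least 1 FPKM, were Myom3 (Pearson r 0.94 over 12 mice), Myh3 (0.93) and Ltbp4 (0.93). Myom3 encodes a myomesin of the M-band, and Myh3 the embryonic myosin heavy chain. Myh3 was 16.3, 11.97 and 25.7 FPKM in CKO 1, 3 and 6, 1.30 to 2.76 in the other CKOs and 0.551 to 1.81 in controls (log2 fold change 2.67, SE 0.61, limma adjusted P = 0.0358). The 3 CKOs with the most Ankrd1 were thus the 3 with the most RNA of this developmental myosin. The study stained embryonic myosin protein in this muscle and found only 1 small positive fiber in the CKOs examined. These correlations describe likeness over 12 mice of 1 muscle and carry no test.

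Ankrd2, Csrp3 and Fhl1 passed neither threshold between the groups but moved together from mouse to mouse. Their log2 fold changes were 0.42 (SE 0.56), 0.59 (SE 0.72) and 0.27 (SE 0.34). With errors larger than the estimates, the comparison cannot tell no difference from a sizeable rise. In controls the 3 genes put the 6 mice in the same order, from control 4 (7.44, 5.90 and 116 FPKM) to control 1 (109, 147 and 444 FPKM). In CKOs, CKO 4 was lowest for all 3 genes (9.19, 6.73 and 119 FPKM) and CKO 6 highest (55.4, 119 and 480 FPKM). The highest value exceeded the lowest 14.7-fold for Ankrd2, 24.9-fold for Csrp3 and 4.14-fold for Fhl1.

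Within controls the Pearson r was 0.999 between Ankrd2 and Csrp3 (exact permutation P = 0.00139), 0.963 between Ankrd2 and Fhl1 (exact P = 0.00278) and 0.959 between Csrp3 and Fhl1 (exact P = 0.00278). Spearman's rho was 1.0 for each pair (exact P = 0.00278). Without the 2 mice farthest from the median, r was 0.994, 0.955 and 0.926. Over the 90 relations computed, none passed after Benjamini-Hochberg adjustment, and the adjusted value of all 3 pairs was 0.0833 for r (0.0625 for rho).

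Within CKOs r was 0.939, 0.964 and 0.873 (exact P = 0.00556, 0.00417 and 0.0347, Benjamini-Hochberg adjusted 0.1, 0.0938 and 0.24). Without the 2 mice farthest from the median the r of CKOs was 0.628, 0.734 and 0.01, so that for Csrp3 and Fhl1 the relation in CKOs rested on those mice. The ratio of Csrp3 to Ankrd2 FPKM was 0.79 to 1.35 in controls, and it was 1.63 in CKO 3 and 2.14 in CKO 6, the mice with the highest ratios.

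**Figure D4:**
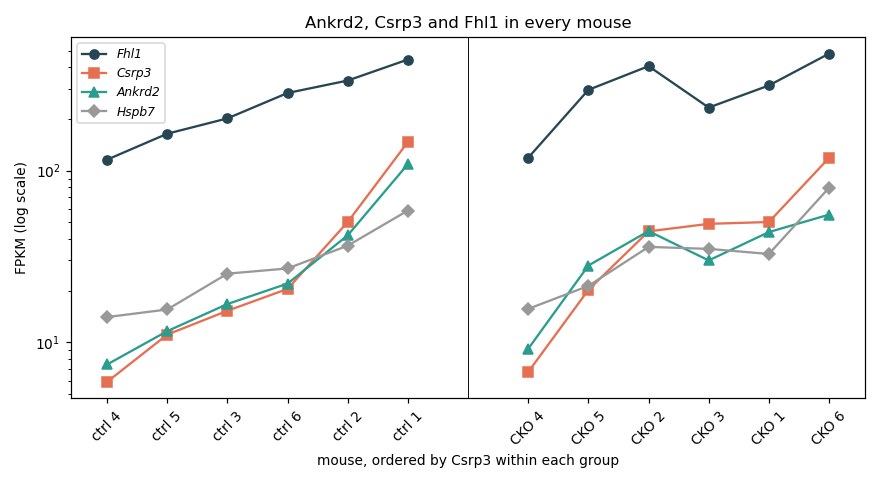
FPKM (log scale) of Fhl1, Csrp3 and Ankrd2, with Hspb7, in 6 controls (left) and 6 CKOs (right), ordered by Csrp3 within each group. In controls the 3 genes rise together from control 4 to control 1, Csrp3 from 5.90 to 147 FPKM.

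The genes most like Csrp3 were Hspb7 (r 0.96), a small heat shock protein of muscle that binds filamin C, Pgd (0.93) and Apol6 (0.93). Hspb7 ran from 14.1 FPKM in control 4 to 58.6 in control 1 and from 15.7 in CKO 4 to 79.5 in CKO 6, with the same mice at both ends as Csrp3. The genes most like Ankrd2 were Tspan12 (r 0.94), Nt5c3 (0.92) and Far1 (0.92). Those most like Xirp1 were Adprhl1 (0.93), Flnc (0.91), which encodes filamin C, the partner of Xirp1 at the Z-disc, and Enah (0.90). Flnc was 65.7 FPKM in CKO 6 against 21.7 to 40.3 in the other 11 mice.

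Across all pairs of members, deviations from the group means correlated most within Ankrd2, Csrp3 and Fhl1 (r 0.97, 0.94 and 0.92 over 12 mice) and next between Ankrd1 and Xirp1 (0.72). In CKOs Ankrd1 and Xirp1 put the 6 mice in the same order (rho 1.0, exact permutation P = 0.00278, Benjamini-Hochberg adjusted 0.0625, r 0.909 with adjusted 0.156, and 0.945 without the 2 farthest mice), whereas in controls r was 0.109 (exact P = 0.878). Whether the relation differed between the groups was not tested. Xirp2, Ankrd23 and Fhl3 reached at most 0.38 with another member.

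**Figure D5:**
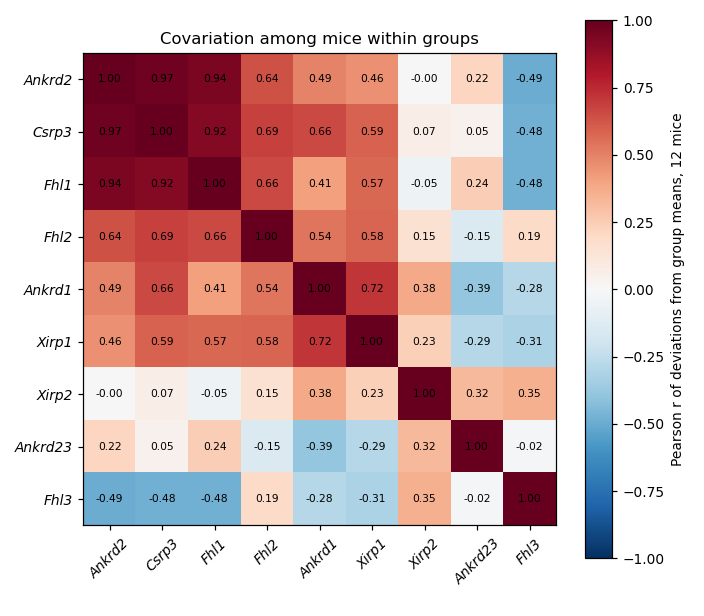
Pearson r between the members of the deviations of log2(FPKM + 0.1) from the group means, over 12 mice. Ankrd2, Csrp3 and Fhl1 form a block at 0.92 to 0.97, Ankrd1 and Xirp1 reach 0.72, and Fhl3 is negative with most members.

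Genes that act beside the members were counted in fixed lists, with the share of all genes at the unadjusted level, 18.1% higher and 1.76% lower, as the background. After median-ratio scaling this background was 6.66% higher and 7.41% lower at the unadjusted level, and 0.764% higher and 0.709% lower at the adjusted one, and the scaled counts of each list are to be read against these shares. Of 24 titin and Z-disc genes tested, 5 were higher and 1 lower at the unadjusted level and none at the adjusted one, with a median log2 fold change of 0.07. Desmin (Des) was 225 ± 18.4 FPKM in controls and 319 ± 58.7 in CKOs (log2 fold change 0.49, SE 0.13, limma adjusted P = 0.0634), and Myom2 and Myoz3 were the other leading genes at 0.43 and 0.58. Ttn, the binding partner of the ankyrin repeat proteins, was listed at 0 in 8 of 12 libraries and between 639 and 871 FPKM in the other 4, so it was not tested. After median-ratio scaling the list had 3 genes higher and 5 lower at the unadjusted level.

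Of 18 filamin C and chaperone-assisted repair genes, 6 were higher and 1 lower, and only Pgm5, which encodes the adhesion protein aciculin and a partner of Xirp1 and filamin C, passed the adjusted threshold. It was 1.43 ± 0.316 FPKM in controls and 2.60 ± 0.635 in CKOs (log2 fold change 0.80, SE 0.19, limma adjusted P = 0.0397). Klhl40 and Klhl41, which stabilise thin filament proteins, were higher by 0.77 and 0.47 at the unadjusted level. After median-ratio scaling 4 were higher and 3 lower, and 0 passed the adjusted threshold, so that the adjusted call of Pgm5 was lost.

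Of 34 other LIM domain genes, 7 were higher, 4 of them at the adjusted threshold, and none was lower. Lmo7 was 7.92 ± 0.603 FPKM in controls and 11.1 ± 1.32 in CKOs, with all 6 CKOs above all controls (log2 fold change 0.48, SE 0.10, limma adjusted P = 0.0189). Lims1, the integrin-linked adaptor PINCH, was higher by 0.86 (SE 0.19, limma adjusted P = 0.0331) and Pdlim2, at a low level, by 1.37 (SE 0.28, limma adjusted P = 0.0188). After median-ratio scaling 6 were higher and 2 lower, and 1 in place of 4 passed the adjusted threshold. Of 30 other ankyrin repeat genes of muscle, 5 were higher, none at the adjusted threshold, led by Ppp1r12b (0.41), Ppp1r12a (0.28) and Ankrd10 (0.45), and after median-ratio scaling 2 were higher and 6 lower.

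The list of YAP and TEAD genes, which holds the regulators themselves and their targets, had 4 of 19 genes higher and none lower, 2 of them at the adjusted threshold. Yap1 was 5.66 ± 0.502 FPKM in controls and 9.53 ± 1.86 in CKOs, with all 6 CKOs above all controls (log2 fold change 0.72, SE 0.13, limma adjusted P = 0.00931). Tead4 was 0.199 ± 0.0742 and 0.607 ± 0.266 FPKM (log2 fold change 1.19, SE 0.27, limma adjusted P = 0.0332), and Crim1 was higher by 0.46 at the unadjusted level. The 2 genes that passed the adjusted threshold are regulators and not targets. After median-ratio scaling 2 genes were higher and 1 lower, and 1 in place of 2 passed the adjusted threshold.

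Of 25 SRF and immediate-early genes, 1 was higher and 4 were lower, none at the adjusted threshold, with a median of -0.14. Egr1 was 3.39 ± 3.63 FPKM in controls and 0.499 ± 0.174 in CKOs (log2 fold change -1.92, SE 0.54, limma adjusted P = 0.0778), and Nr4a3 and Junb were at -2.34 and -1.11. These transcripts of the early response to stimulation had the opposite sign to Ankrd1, and the spread was in the controls, where Egr1 ran from 0.452 to 10.1 FPKM. After median-ratio scaling none was higher and 6 were lower.

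Fiber-type and developmental lists gave the setting. Of 12 slow-twitch genes, 9 were higher and none lower (median 1.06), with Myh7b at the adjusted threshold (log2 fold change 0.94, SE 0.23, limma adjusted P = 0.0470) and Myoz2 and Atp2a2 at 0.90 and 0.87. Of 12 fast-twitch genes 4 were higher and none lower (median -0.17), led by Myh1 (1.05, SE 0.18, limma adjusted P = 0.00733), Mybpc2 (0.52) and Myh4 (0.77). Of 15 embryonic and regeneration genes 9 were higher and none lower (median 0.74), 4 of them at the adjusted threshold. Mybph was higher by 1.83 (SE 0.25, limma adjusted P = 0.00251), Sln by 3.95 (SE 0.78, limma adjusted P = 0.0173) and Chrna1 by 0.81 (SE 0.18, limma adjusted P = 0.0331). After median-ratio scaling the counts higher and lower were 8 and 1 for slow-twitch, 4 and 6 for fast-twitch and 7 and 1 for embryonic and regeneration genes. At the adjusted threshold scaling left 0 slow-twitch genes, so that the call of Myh7b was lost, 1 fast-twitch gene and 2 in place of 4 embryonic and regeneration genes. Of 4 satellite cell markers 3 were higher at the unadjusted level, with a summed FPKM of 2.17 to 3.21 in CKOs and 1.44 to 1.99 in controls, and the part of these cells in the results of the members was not tested.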

How the data were processed

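RNA was sequenced from the tibialis anterior of 6 controls and 6 Smyd1 CKOs, with a single library for each mouse. The authors removed ribosomal RNA, aligned reads with bowtie2 and TopHat2 2.0.10 (version and build mm9 from the submitters' processing notes), kept only uniquely placed reads and computed the deposited FPKM with Cufflinks 2.1.1. Their own differential expression was taken from counts, which were not used here. Keeping unique reads lowers genes with near-identical copies.

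Each file held 23950 rows, of which 27 carried a date in place of a symbol and were dropped. Groups came from the genotype labels. The main test was limma 3.58.1 (R 4.3.3) with an intensity trend on log2(FPKM + 0.1), which understates changes of low genes, on 12695 genes (0.1 FPKM or more in 6 or more samples), unblocked, with P adjusted by Benjamini-Hochberg over all genes tested. Adjusted P of genes come from this fit unless another setting is named beside them. A single value was also compared by a two-sided exact permutation test over 924 assignments (smallest P 0.00216). The labels do not name litters. Correlations of same-numbered samples over all genes tested lay between -0.0861 and 0.164, so replicate numbers were not used as pairs in the main test. These correlations do not settle whether same-numbered mice move together for single genes. Depth is unknown, and no counting interval is given.

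The members and gene lists were chosen with earlier results of these data known. Named genes were the 9 members, Smyd1, the 3 genes with the smallest P of each list, and the 3 genes most like Ankrd1, Ankrd2, Csrp3 and Xirp1. Myh3, Flnc and Ttn were described further, and single list or marker genes named, after their values were seen. The other steps ran in Python 3.11.15, and only the limma fit was tested on simulated data. Alternatives were another pseudocount, filter, scaling, trend, weights, block or covariate, and each mouse left out.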

Additional observations from a re-analysis of the deposited data

Results flagged for a closer look

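Dixon's test at the 95% level was applied to FPKM without logs in 20 groups of 6 mice. Chance alone marks about 1 in 20 of such groups only where the values are normally distributed. The values of several members spread over many fold, and the test was not run on the log2 scale used elsewhere. The marks below therefore hold for the FPKM scale only. On this scale Ankrd2 at 109 FPKM and Csrp3 at 147 FPKM in control 1 stood apart from the other controls (Dixon ratios 0.66 and 0.685). Both values came from the library with 811 FPKM of fibroblast and tenocyte markers, which also had the most macrophage and erythroid markers. The part of these markers in the values was not tested. Fhl1, which shared the order of mice, was not marked in this library (ratio 0.332). Xirp1 at 29.5 FPKM in CKO 6 stood apart from the other CKOs on this scale (ratio 0.674). Among CKOs this mouse was also highest for Ankrd1, Ankrd2, Csrp3, Fhl1 and Fhl2.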

How the results depend on the processing

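The 9 members were refitted under 22 alternatives, 12 of which left out 1 mouse. Ankrd1 kept its direction in all 22, from 0.62 to 2.50 on the log2 scale, and its unadjusted call in 20. Fhl2 kept its direction in the 21 in which it was tested, from 0.33 to 1.17, and its call in 19. It was not tested with a filter at 1 FPKM. Both lost the call with the slow-twitch score as a covariate, leaving 0 members called, and 0 also when median-ratio scaling was combined with the score, an alternative added after the data were seen.

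The number of members called higher at the adjusted threshold was 0, but 1 with the replicate block (Ankrd1, limma adjusted P = 0.031), 2 with sample weights (Ankrd1 0.00535, Fhl2 0.0352) and 0 to 1 with a mouse left out. The replicate block is given although the numbers were not shown to pair the mice. With the block the SE fell from 0.56 to 0.29 for Ankrd2, from 0.72 to 0.41 for Csrp3, from 0.34 to 0.17 for Fhl1 and from 0.32 to 0.14 for Xirp1. It also fell for Ankrd1, Fhl2 and Fhl3, but not for Ankrd23 and Xirp2. Whether same-numbered mice shared a litter or a batch was not tested. With a mouse left out, 2 to 3 members were higher and 0 to 1 lower at the unadjusted level. Over all genes these counts were 1724 to 3416 higher and 193 to 320 lower. Median-ratio scaling gave 2 members higher and 1 lower (Ankrd23), against 6.66% and 7.41% of all genes. Xirp2 crossed the unadjusted threshold in 5 alternatives.

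Signs changed for members that had not passed. With the score as a covariate Ankrd2 was -0.034, Csrp3 -0.38 and Xirp1 -0.54. With scaling and score together Ankrd2 was -0.074, Csrp3 -0.35, Fhl1 -0.062, Xirp1 -0.65 and Xirp2 -0.038. Xirp1 was -0.14 after median-ratio scaling and -0.070 after quantile normalization, and between -0.21 and 0.21 with a mouse left out. Fhl3 lay between -0.14 and 0.0018 with a mouse left out. The causes were not tested. With the score as a covariate 1112 of the 12695 genes tested were higher and 205 lower at the unadjusted level. Without the score 2300 were higher and 224 lower. The counts of the lists with the score are to be read against 1112 and 205. The titin and Z-disc list had 2 genes higher and 0 lower, and the filamin C list 2 and 1. The LIM list had 4 and 0, the ankyrin list 3 and 0 and the YAP and TEAD list 2 and 1. The SRF list had 1 and 5, the fast-twitch list 3 and 0 and the embryonic list 5 and 1.

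Over all genes, 2300 higher and 224 lower at the unadjusted level became 845 and 941 after median-ratio scaling, 810 and 837 after quantile normalization, 1112 higher with the score and 605 and 603 with scaling and score, and 3704 higher with sample weights. The 257 higher and 34 lower at the adjusted threshold became 97 and 90, 101 and 68, 6 and 2, 13 and 11, and 1400 and 115 in the same order, and 170 higher without a filter. With a mouse left out the adjusted counts lay between 88 and 1075 higher and between 18 and 69 lower, and the unadjusted ones between 1724 and 3416 higher and between 193 and 320 lower. FPKM carry no depth, so that no counting error can be given for low genes such as Fhl2.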
